A study of Homo sapiens with 8 samples.

Results

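The genes described here are the 10 genes TGFB1, TGFB2, TGFBR1, TGFBR2, SMAD3, SMAD6, SMAD7, SKIL, ID1 and ID3, taken by name from the TGF-beta, SMAD and ID families. Every probe set whose only annotated gene symbol is one of these was used, which gave 28 probe sets for 10 of the 18132 genes that have a probe set of their own on the array. RNA was measured on 8 Affymetrix PrimeView arrays of MIA PaCa-2, an established line from a human pancreatic carcinoma. In 4 of them the cells had been treated with 30 μM pachymic acid (PA), a triterpenoid of the fungus Poria cocos, and in 4 with DMSO, the solvent of PA, for 24 h in medium with fetal bovine and horse serum. Whether the 4 samples of a group came from separate passages or days is not stated in the sources used here, so the p-values measure the spread between these samples, which may be technical, and all values come from 1 cell line.

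TGF-beta ligands are secreted in a latent form and, once released, bring together a type II and a type I receptor, both of which are kinases. The type I receptor phosphorylates SMAD2 and SMAD3, which enter the nucleus with SMAD4. BMP ligands, of the same superfamily, act through SMAD1, SMAD5 and SMAD9, and the ID genes are among their best known targets. SMAD6 and SMAD7 inhibit the pathway as feedback, and SKIL (SnoN) is a corepressor of SMAD complexes. ID proteins bind bHLH transcription factors and keep them from DNA. In pancreatic cancer the pathway is known for a dual role, as a brake on growth in early lesions and as a driver of invasion later.

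SMAD6 was lower in PA-treated cells at its brightest probe set, SMAD3 was slightly higher at its brightest probe set, and the other 8 genes did not pass the test. Neither call held when the background signal of GC-rich control probe sets, which had a higher mean in the PA arrays, was added to the model. Because it differed with the treatment, this term takes up part of the treatment difference and widens the standard errors. At the brightest SMAD6 probe set the standard error was 0.14 without it and 0.18 with it. A change with PA and a change with this background cannot be told apart here. With that term 1.56% of all probe sets tested were called, against 17.1% without it. A probe set was tested where the mean log2 signal of the higher group was at least 4, which kept 23 of the 28 probe sets, at least 1 for each gene. The test was limma over all 38748 probe sets that met this limit, with Benjamini-Hochberg adjustment over all of them, and a probe set was called at an adjusted p under 0.05. Of the 23 probe sets 1 was raised, 1 was lowered and 21 did not pass. Over all probe sets tested PA raised 8.0% and lowered 9.07%. Called members made up 8.70% of the 23 against 17.1% of all probe sets, but 26.1% against 22.0% when limma's prior variance followed the signal, so which share was larger depended on the model. At the brightest probe set of each gene 1 of 10 was raised and 1 was lowered, against 8.23% raised and 10.5% lowered of 15226 genes, which is near the background. Only the SMAD6 call reached 1.5-fold, where the background was 0.475% raised and 0.658% lowered. In 2 of the 23 probe sets every PA array was above every DMSO array and in 4 below, against 11.1% and 12.2% of all probe sets tested. The median change of the 23 probe sets was -0.02 on the log2 scale, and that of all probe sets tested was 0.02.

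**Figure D1:**
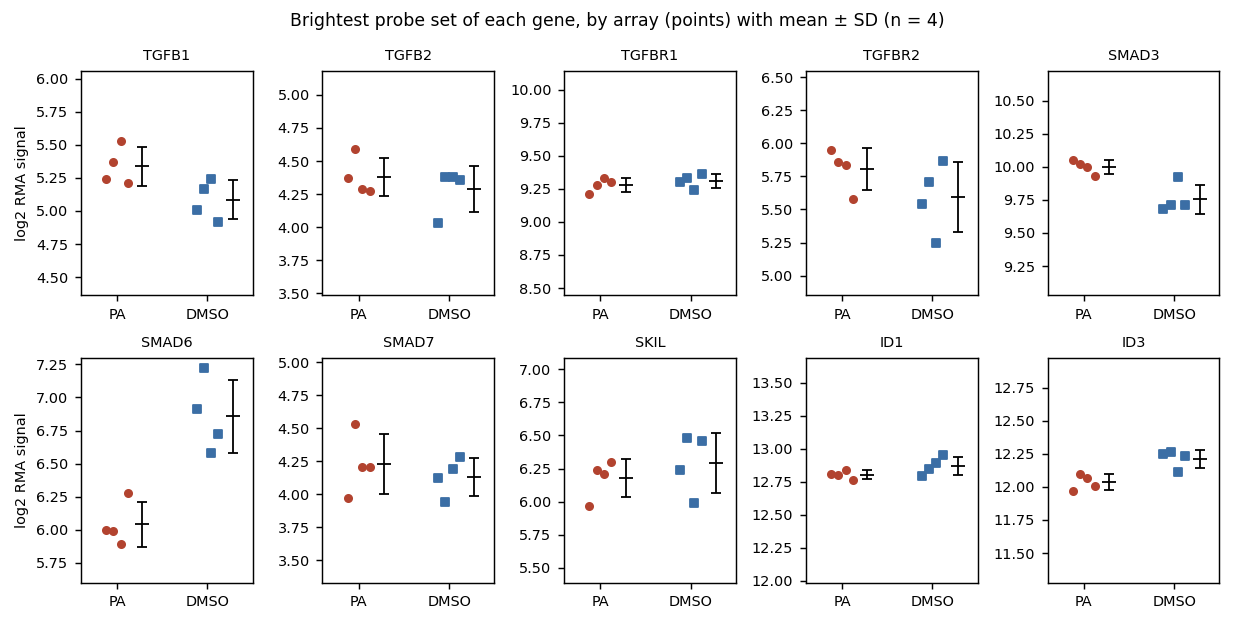
The log2 RMA signal of the brightest probe set of each of the 10 genes is plotted for the 4 PA (left) and 4 DMSO (right) arrays, with the mean and SD at the right of each group; every panel spans the same range in log2 units. The PA arrays lie below all DMSO arrays for SMAD6 and ID3 and above them for SMAD3, and the groups overlap for the other 7 genes; a second ID3 probe set with the same mean, not plotted, also overlaps.

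Signals of some control probe sets also differed between the groups, and their part in the results was not tested except where a value is given beside a gene. Array medians were 5.71 to 5.77, and array pairs of 1 group correlated at 0.9964 to 0.9977, those of different groups at 0.9931 to 0.9964. The GC-rich background was averaged over 8 control probe sets of 18 or more G and C bases per probe. It was 7.03 ± 0.082 in PA and 6.77 ± 0.15 in DMSO arrays (SD, n = 4 each). The groups overlapped, at 6.92 to 7.1175 in PA and 6.59 to 6.945 in DMSO arrays. By an exact two-sided permutation p was 0.0571, where 4 against 4 arrays allow no p under 0.0286. Control probe sets whose groups did not overlap are given at the end. Of the markers of a carcinoma of epithelial origin, KRT8, KRT18 and KRT19 had mean log2 signals of 11.5 or more in every group and VIM, the mesenchymal filament vimentin, 14.4, while KRT7, EPCAM and CDH1 lay between 3.97 and 4.39. At the brightest probe set KRT8 and KRT18 were raised and none of the 7 was lowered. KRT8 was raised at only 1 of its 8 tested probe sets and KRT18 at 1 of 2. KRT8 was not called without any single array other than PA replicate 3 (adjusted p up to 0.109 from limma). KRT18 was not called without PA replicate 1, 2 or 3 or DMSO replicate 1 or 2 (up to 0.0610). The mean signal of the 7 was 9.11 to 9.30 in PA and 9.16 to 9.31 in DMSO arrays. Of 6 fibroblast markers DCN and LUM were below 4, and COL1A2 was lowered, at 9.88 in PA and 10.4 in DMSO arrays. COL3A1 was at 7.225 in PA and 7.27 in DMSO arrays. The mean over the list was 5.7 to 5.80 in PA and 5.81 to 5.87 in DMSO arrays. Of 5 leukocyte markers PTPRC and MS4A1 were below 4, and CD14 was lowered, at 6.83 in PA and 7.35 in DMSO arrays. CD68 was at 8.545 in PA and 8.435 in DMSO arrays. The mean over the list was 5.43 to 5.48 in PA and 5.45 to 5.56 in DMSO arrays. Of 4 endothelial markers none was called, and their mean was 5.77 to 5.81 in PA and 5.46 to 5.7 in DMSO arrays. The brightest of them, CDH5, was at 7.93 in PA and 7.54 in DMSO arrays.

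Since SMAD6 and SMAD3 were the genes called, and SMAD7 is the closest relative of SMAD6, the 250 bases before their annotated starts are shown, from RefSeq on GRCh38.p14. Where a gene has several starts, the one farthest upstream was taken. All 10 genes matched the promoter table, with 24 windows. They were searched on both strands for GTCTAGAC, the palindromic SMAD-binding element, for CAGACA, which extends the short SMAD site, and for GGCGCC, a GC-rich element that BMP SMADs can bind. Matches are in capitals, and no matches overlap in the windows shown. SMAD6 lies at chr15:66702236-66782849, and the window is chr15:66701986-66702235 on the plus strand. The SMAD3 window is chr15:67065352-67065601 on the plus strand, and that of SMAD7 is chr18:48950966-48951215 on the minus strand.
SMAD6: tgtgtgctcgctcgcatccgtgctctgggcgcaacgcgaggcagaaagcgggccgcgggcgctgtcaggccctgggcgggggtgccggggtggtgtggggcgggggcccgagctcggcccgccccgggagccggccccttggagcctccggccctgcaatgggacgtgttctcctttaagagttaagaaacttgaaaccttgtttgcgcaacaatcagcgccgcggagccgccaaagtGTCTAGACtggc
SMAD3: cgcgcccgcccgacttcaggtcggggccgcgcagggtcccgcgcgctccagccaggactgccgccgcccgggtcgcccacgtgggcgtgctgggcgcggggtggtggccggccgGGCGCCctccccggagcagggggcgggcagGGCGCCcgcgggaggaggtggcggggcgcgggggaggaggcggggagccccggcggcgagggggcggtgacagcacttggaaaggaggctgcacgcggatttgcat
SMAD7: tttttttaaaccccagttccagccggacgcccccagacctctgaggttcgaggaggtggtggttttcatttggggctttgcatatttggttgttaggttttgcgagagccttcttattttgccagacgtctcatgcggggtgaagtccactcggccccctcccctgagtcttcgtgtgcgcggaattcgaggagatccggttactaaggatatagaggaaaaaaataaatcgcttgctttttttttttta
The palindrome begins at position -12 from the SMAD6 start, and 1 of the 24 windows holds it, as do 0.182% of the 35116 promoter windows of this length. The form CAGACA is in 4 of the 24 windows, of TGFB2, TGFBR1 and SMAD3, and in 13.6% of all windows. The SMAD3 window shown holds GGCGCC at positions -136 and -106 from the start, and this motif is in 3 of the 24 windows and in 16.4% of all. The SMAD7 window shown holds none of the 3. These are matches of letters and say nothing about binding.

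The ligands TGFB1 and TGFB2 were dim and did not pass the test. TGFB1, the founding ligand of the family, had log2 signals of 5.24, 5.37, 5.53 and 5.21 in the PA arrays, against 5.01, 5.17, 5.24 and 4.92 in the DMSO arrays. The groups overlapped, since PA replicate 4 was below DMSO replicate 3, but the PA mean was higher, 5.34 ± 0.15 against 5.09 ± 0.15 (SD, n = 4 each), a log2 change of 0.25 with a 95% interval of 0.05 to 0.46 (adjusted p = 0.0902 from limma). TGFB2 had 4.37, 4.59, 4.29 and 4.27 in PA and 4.03, 4.38, 4.38 and 4.36 in DMSO arrays at its brighter probe set. These groups overlapped, with a change of 0.09 and an interval of -0.13 to 0.31. The change was 0.0067 without DMSO replicate 1 and 0.02 without PA replicate 2. At its dimmer probe set the log2 difference was -0.08 (-0.26 to 0.09). Both lie close to the limit of 4.

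The receptors did not pass either. TGFBR1, the type I receptor kinase, had log2 signals of 9.21, 9.28, 9.33 and 9.30 in PA and 9.30, 9.33, 9.24 and 9.36 in DMSO arrays at its 1 tested probe set. The groups overlapped almost fully and the interval of the change was -0.14 to 0.08. Its other 2 probe sets had group means of 3.62 to 3.95 and were not tested. TGFBR2, the type II receptor that binds the ligand first, had 5.95, 5.86, 5.84 and 5.58 in PA against 5.54, 5.71, 5.25 and 5.87 in DMSO arrays. Its DMSO arrays spread more widely than its PA arrays, and the change was 0.22 with an interval of -0.08 to 0.51 (adjusted p = 0.286 from limma). Without DMSO replicate 3 the change was 0.10. Its dimmer probe set was below 4.

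SMAD3, the SMAD that TGF-beta receptors activate and that binds DNA, was a little higher in PA-treated cells. Its brightest probe set had log2 signals of 10.05, 10.02, 10.00 and 9.93 in PA arrays, against 9.68, 9.71, 9.92 and 9.71 in DMSO arrays. All PA arrays lay above all DMSO arrays, but DMSO replicate 3 nearly reached the lowest PA array. The means were 10.00 ± 0.051 in PA and 9.76 ± 0.11 in DMSO cells (SD, n = 4 each), a rise of 0.25 or 1.19-fold (standard error 0.063, adjusted p = 0.0285 from limma). The second probe set, at 9.49 ± 0.039 in PA and 9.35 ± 0.082 in DMSO arrays, also had no overlap between the groups, with a change of 0.15 that did not pass (adjusted p = 0.0973 from limma). Its values were 9.54, 9.46, 9.46 and 9.51 in PA and 9.23, 9.38, 9.42 and 9.36 in DMSO arrays. The 3 dimmer ones had differences of 0.08, 0.12 and 0.18 and overlapped, so the mean was higher in PA at all 5 probe sets and the test was passed at 1. The call was lost without PA replicate 1, 2 or 3 or DMSO replicate 1, 2 or 4 (limma's adjusted p was 0.0607 to 0.0740). When the model also held the GC-rich background, the change was 0.13 with a standard error of 0.085 (adjusted p = 0.492).

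SMAD6, an inhibitory SMAD that acts mainly on BMP signaling, had the largest change of the 23 probe sets. Its brightest probe set had log2 signals of 6.0, 5.99, 5.89 and 6.28 in PA arrays, against 6.91, 7.22, 6.58 and 6.72 in DMSO arrays. Every PA array was below every DMSO array, and the spread was wider among the DMSO arrays. In a culture of many cells, fewer cells with the transcript and less of it per cell cannot be told apart. The means were 6.04 ± 0.17 in PA and 6.86 ± 0.28 in DMSO cells (SD, n = 4 each). SMAD6 fell by 0.82 on the log2 scale, or was 1.76-fold lower (standard error 0.14, 95% interval of the log2 change -1.12 to -0.51, adjusted p = 0.00490 from limma). The adjusted p was 0.00572 to 0.0171 without each array in turn.
The other 2 SMAD6 probe sets did not pass the test. The second had 5.21, 5.11, 5.34 and 5.14 in PA and 5.05, 4.92, 5.14 and 5.22 in DMSO arrays, a change of 0.12 (-0.06 to 0.29). The dimmest had 4.76, 4.79, 4.90 and 4.41 in PA and 4.79, 4.78, 4.76 and 4.68 in DMSO arrays, a change of -0.04 (-0.25 to 0.18). Both groups overlapped at each of them, and the mean over the 3 probe sets had a difference of -0.25. When the model also held the GC-rich background, the difference at the brightest probe set was -0.51 with a standard error of 0.18, which was not called (adjusted p = 0.179). Which transcripts of SMAD6 each probe set reads was not analysed here.

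**Figure D2:**
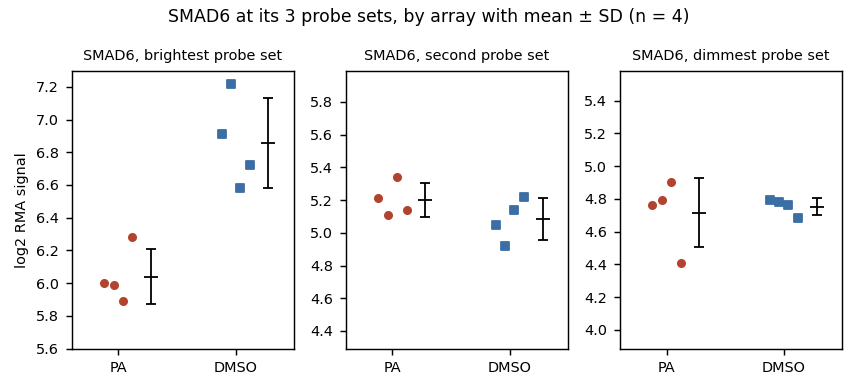
The log2 RMA signal of the 3 SMAD6 probe sets is plotted for each PA (left) and DMSO (right) array, with the mean and SD (n = 4) beside the points and the same span of log2 units in each panel. The groups are apart at the brightest probe set, with means of 6.04 in PA and 6.86 in DMSO, and overlap at the other 2.

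SMAD7, the inhibitory SMAD that brings ubiquitin ligases to the TGF-beta receptor, was hardly above the limit. Its brightest probe set had log2 signals of 3.97, 4.53, 4.21 and 4.21 in PA and 4.12, 3.94, 4.19 and 4.28 in DMSO arrays. The groups overlapped, with a change of 0.10 (-0.16 to 0.36). A second probe set had 4.16, 4.13, 4.12 and 4.14 in PA and 4.10, 3.98, 4.12 and 3.97 in DMSO arrays, a change of 0.10 (-0.02 to 0.21), and the third was below 4. SKIL, whose protein TGF-beta signaling degrades and whose gene it then induces, had 5.97, 6.24, 6.21 and 6.30 in PA and 6.24, 6.48, 5.99 and 6.46 in DMSO arrays at its brightest probe set. It overlapped too, with a change of -0.11 (-0.37 to 0.15), and its second probe set, with 4.75, 5.41, 5.10 and 5.14 in PA and 5.21, 5.49, 5.19 and 5.37 in DMSO arrays, had a difference of -0.22 (-0.50 to 0.07). The PA mean was lower at both, and the third was below 4. Neither gene passed.

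ID1 and ID3, inhibitors of bHLH factors and targets of BMP signaling, had a lower mean in PA-treated cells at all 6 of their probe sets, with changes of -0.18 to -0.02 on the log2 scale. None passed this test, but ID1 and ID3 probe sets passed under some of the alternatives given at the end. Of the ID3 probe sets 2 tied as the brightest, with the same mean of 12.125 over the 8 arrays. ID3 at the 1 of them that represents it in the counts by gene had log2 signals of 11.97, 12.10, 12.07 and 12.01 in PA and 12.25, 12.26, 12.11 and 12.23 in DMSO arrays. All PA arrays lay below all DMSO arrays, with DMSO replicate 3 next to the highest PA array, and the change of -0.18 (-0.30 to -0.05) had an adjusted p of 0.0543 from limma. At the equally bright one ID3 had 12.11, 12.14, 12.09 and 12.12 in PA and 12.10, 12.07, 12.12 and 12.25 in DMSO arrays. There the groups overlapped, with a difference of -0.02 (adjusted p = 0.821 from limma), so the tie decides how ID3 appears in the counts by gene. The third probe set overlapped too, with a difference of -0.02.
ID1 at its brightest probe set had log2 signals of 12.81, 12.80, 12.84 and 12.76 in PA and 12.79, 12.85, 12.89 and 12.95 in DMSO arrays, which overlapped, with a change of -0.07 (-0.18 to 0.04). At the next it had 12.11, 12.16, 12.12 and 12.14 in PA against 12.22, 12.18, 12.25 and 12.33 in DMSO arrays, and at the third 11.75, 11.78, 11.77 and 11.74 against 11.87, 11.86, 11.88 and 11.95. In these 2 all PA arrays were below all DMSO arrays, with changes of -0.11 and -0.13 (adjusted p = 0.140 and 0.0715 from limma). The 3 ID probe sets whose groups overlap carry the suffix x, by which the array maker marks probe sets with probes that can match other sequences, and the 3 whose groups do not overlap carry the suffix a. ID3 passed without DMSO replicate 3 (-0.21, adjusted p = 0.0309).

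**Figure D3:**
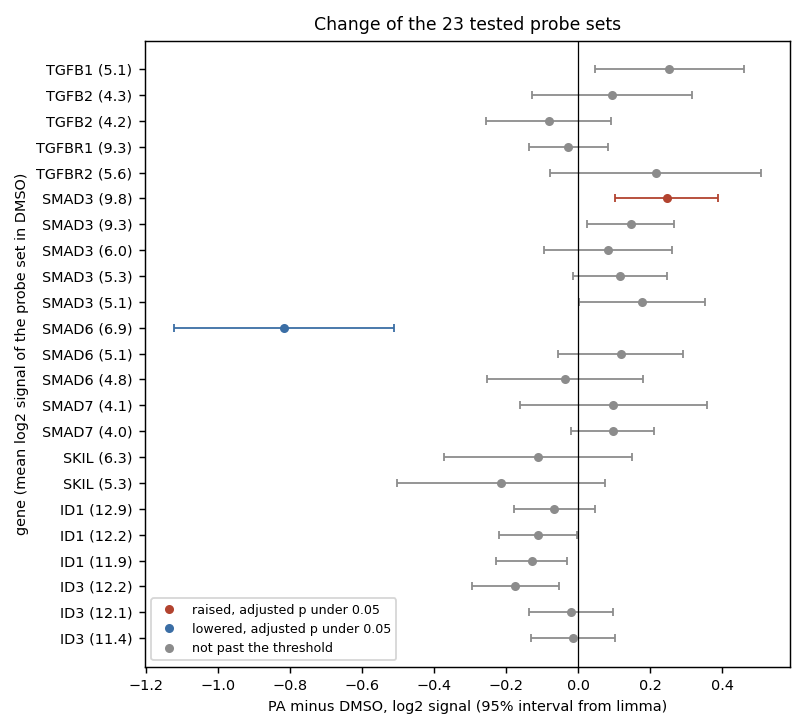
The change in log2 signal (PA minus DMSO) of each of the 23 tested probe sets is plotted with its 95% interval from limma, ordered by role and, within a gene, by brightness, with the mean DMSO signal in parentheses. SMAD6 at its brightest probe set stands at -0.82, SMAD3 at 0.25 is the only raised probe set, and the 6 ID probe sets all lie slightly left of 0.

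Whether 2 genes of the same role changed differently was tested for 4 pairs, as the difference of their log2 signals within each array. SMAD7 minus SMAD6 was -2.07 to -1.46 in PA and -3.28 to -2.39 in DMSO arrays, so the groups did not overlap. The change of SMAD7 exceeded that of SMAD6 by 0.92 (standard error 0.25; p = 0.0286 by an exact two-sided permutation, which is the lowest possible here, and 0.114 after Benjamini-Hochberg adjustment over the 4 pairs). Over the means of all tested probe sets of each gene the difference was 0.34, and SMAD7 lay close to the limit of 4, so the larger value rests on the brightest SMAD6 probe set. The adjusted value could not fall below 0.05 unless at least 3 of the 4 pairs had reached that smallest p. The other pairs overlapped. TGFB1 minus TGFB2 differed by 0.16 (exact permutation p = 0.371), TGFBR1 minus TGFBR2 by -0.24 (exact permutation p = 0.171) and ID1 minus ID3 by 0.11 (exact permutation p = 0.200). With the equally bright ID3 probe set the last was -0.05 (exact permutation p = 0.229).

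Other genes of the pathway were counted in 9 lists, with each gene at its brightest tested probe set and beside a median change of 0.02 on the log2 scale over all 15226 genes, of which 8.23% were raised and 10.5% lowered. Genes that could not be matched to a probe set of their own were not used here. The lists share some genes, such as PMEPA1 and ID2, so their counts are not separate observations. The lists and the members were chosen with earlier results of these data known, and the study's own table of raised probe sets holds SMURF2, CCN2 and CDKN1A, so their direction is not independent evidence. Of the other SMADs, SMAD1, SMAD2, SMAD4, SMAD5 and SMAD9, 0 of 5 passed, with changes of -0.22 to 0.01. SMAD1 and SMAD5, which carry BMP signals, had differences of -0.22 and -0.16, and SMAD4, the shared partner, of -0.07. Of the 7 tested SMAD4 probe sets 1 was raised and 1 was lowered. With the GC-rich background in the model SMAD1 and SMAD5 were at 0.03 each, so their direction turned.

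Of 10 other receptors tested, 2 were lowered and none was raised, with a median of -0.10. BMPR2, the type II receptor for BMPs, fell by 0.45 to 8.34 ± 0.075 in PA cells, against 8.79 ± 0.079 in DMSO cells (adjusted p = 0.00186 from limma), and was lowered at all 3 of its probe sets. TGFBR3, the coreceptor betaglycan that presents TGF-beta2, fell by 0.42 (adjusted p = 0.00286) and at 2 of 3 probe sets. Of 23 other ligands and binding proteins 4 passed as raised and 3 as lowered, with a median of 0.01. GDF15, a stress-induced ligand of the superfamily, rose by 0.56 and was raised at 3 of 5 tested probe sets. LTBP2, a latent TGF-beta binding protein of the matrix, rose by 0.46 and was raised at both of its probe sets. INHBE, an activin subunit, averaged 4.30 in PA and 3.90 in DMSO cells, so it met the limit of 4 through the PA arrays alone and its call rests on a DMSO signal under that limit. LTBP3, which binds latent TGF-beta, fell by 0.29, GDF11 by 0.22 and FSTL1 by 0.19, each at 1 of its probe sets (of 4, 3 and 2). INHBE was not called without PA replicate 4 or DMSO replicate 1, 2 or 4 (adjusted p up to 0.0634 from limma). GDF11 was not called without PA replicate 1, 2 or 4 or DMSO replicate 1, 2 or 4 (up to 0.0811), nor FSTL1 without any PA replicate or DMSO replicate 2 or 4 (up to 0.0752). Of 12 genes that release or activate latent TGF-beta only PLAU, the plasminogen activator urokinase, passed, at 11.74 ± 0.057 in PA and 11.35 ± 0.052 in DMSO cells (adjusted p = 0.00178 from limma).

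Of 12 corepressors, coactivators and cofactors of SMADs 1 was raised and 2 were lowered. The coactivators EP300 (p300) and CREBBP (CBP) fell by 0.38 and 0.32, and CREBBP was lowered at 2 of 5 tested probe sets. RUNX3, a transcription factor that partners SMADs, rose by 0.30 and was raised at 1 of 2. Of 17 genes that turn over SMADs and receptors 2 were raised and 3 were lowered. SMURF2, a ubiquitin ligase that works with SMAD7, rose to 11.71 ± 0.062 in PA cells, against 11.27 ± 0.042 in DMSO cells (log2 change 0.44, adjusted p = 0.00106 from limma). PMEPA1, an inhibitor that TGF-beta induces, rose by 0.27, while CD109, a coreceptor that restrains the pathway, fell by 0.30 and RNF111 (Arkadia), a ubiquitin ligase that degrades SMAD7 and SKIL proteins, by 0.27. Of 3 tested probe sets each, PMEPA1 was raised at 1 and SMURF2 at 2, and CD109 and RNF111 were each lowered at 2. The PMEPA1 call was lost without PA replicate 1 or 2 or DMSO replicate 1 (adjusted p up to 0.0564 from limma).

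Of 5 other ID genes and bHLH partners ID2 and TCF12 were lowered. ID2, a further target of BMP signaling, had log2 signals of 10.66, 10.80, 10.82 and 10.79 in PA and 11.25, 11.28, 11.13 and 11.39 in DMSO arrays. Its groups did not overlap. It had means of 10.77 ± 0.073 in PA and 11.26 ± 0.11 in DMSO cells, fell by 0.50 (adjusted p = 0.00190 from limma) and was lowered at both of its probe sets; with the GC-rich background in the model the change was -0.40 (adjusted p = 0.0793). TCF12, a bHLH factor of the E protein class, fell by 0.31 and was lowered at 3 of its 11 tested probe sets. Its call was lost without PA replicate 1 or 4 or DMSO replicate 1 or 2 (adjusted p up to 0.0582 from limma). Of 31 genes that TGF-beta is known to induce or repress 5 passed as raised and 3 as lowered, with a median of 0.10. CCN2, the connective tissue growth factor, rose by 1.24 (2.36-fold) and CDKN1A, the p21 inhibitor of cyclin-dependent kinases, by 0.91, while ANGPTL4, a secreted inhibitor of lipoprotein lipase, fell by 0.94, CDKN1C (p57) by 0.46 and TSC22D1 by 0.21. CDKN1C and TSC22D1 were each lowered at 2 of 3 tested probe sets. TSC22D1 was not called without any 1 of the 8 arrays (adjusted p of 0.0515 to 0.118 from limma). Of 15 genes responsive to BMP, ID2 was lowered, MSX1, a homeobox factor, rose by 0.33, and 13 did not pass. The MSX1 call was lost without PA replicate 2 or 4 or DMSO replicate 1 (adjusted p up to 0.0530 from limma). With the GC-rich background in the model 4 genes of these lists were still called, which were CCN2, CDKN1A, CDKN1C and SMURF2, where 0.933% of all genes were raised and 0.762% lowered.

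**Figure D4:**
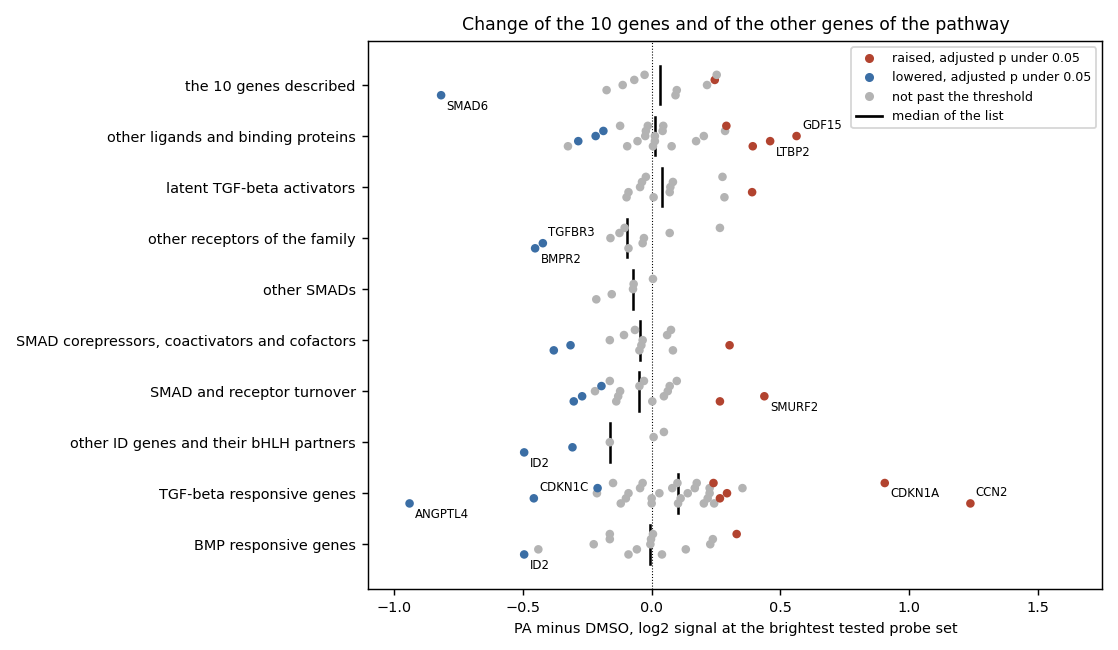
Each point is the change in log2 signal (PA minus DMSO) of a gene at its brightest tested probe set, for the 10 genes (top row) and for 9 lists of other genes of the pathway, with the median of each list as a bar. Medians lie between -0.16 and 0.10, and called genes stand on both sides of 0 in 5 of the 9 lists.

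For each member the gene with the most similar course over the 8 arrays was sought among all genes tested, by the root mean square difference of log2 signals after each was centred on its own mean. For SMAD6 this was CYP2U1, a cytochrome P450, at 6.82 ± 0.11 in PA and 7.54 ± 0.16 in DMSO cells (SD, n = 4 each), with a difference of 0.12 where SMAD6 itself varied by 0.45 (root mean square) around its mean. For SMAD3 it was GAMT, the last enzyme of creatine synthesis, with a difference of 0.030 against a variation of 0.14, and for ID3, at the probe set that represents it, it was ACO1, the cytosolic aconitase, with 0.020 against 0.10. For the other 7 members the likest genes differed by 0.014 to 0.065, and none of these likest genes passed the test.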

How the data were processed

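The deposited values were log2 RMA signals, which the authors made from Affymetrix PrimeView arrays with GCOS, RMA and Partek (versions not given in the sources used here), with background correction, quantile normalization and median polish over the arrays. Whether arrays of a second cell line shared this normalization is not stated. Quantile normalization forces the arrays to 1 distribution, so a shift of all genes would not be seen. The number of arrays limits the precision, and signals near background compress changes.

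Of 49395 probe sets, 44988 have 1 gene symbol in the platform annotation, 1832 several and 2473 none, and 102 are controls. Genes were named from the first only. The 38748 probe sets with a mean of at least 4 in the higher group were fitted by limma 3.58.1 (R 4.3.3; lmFit and eBayes) as PA minus DMSO, with Benjamini-Hochberg adjustment over all of them and calls at an adjusted p under 0.05. A gene was represented by its tested probe set with the highest mean; for ID3, where 2 tied, 1 was taken and the other is given beside it. Single values were tested by exact two-sided permutation (scipy 1.17.1). The fit was tested on simulated data. Groups followed the treatment in the labels.

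All 10 genes are named with all probe sets; of each list, up to 4 called genes with the smallest adjusted p and every gene called against the majority are named, and the members of a list with no call. SMAD1, SMAD4 and SMAD5 were given values after these were seen. The members and lists were chosen with earlier results of these data known. Alternatives were another filter, another normalization, an intensity trend, the replicate number as a block, the GC-rich background as a covariate, unmoderated q-values, other thresholds, the mean over probe sets and each array left out.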

Additional observations from a re-analysis of the deposited data

Results flagged for a closer look

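In 3 of 56 groups of 4 arrays of the member probe sets, 1 array stood apart from the others, where chance gives about 1 in 20. TGFB2 was low in DMSO replicate 1 at 1 probe set, 4.03 against 4.36 to 4.38 in the other DMSO arrays (the gap was 0.943 of the group's range), and the change without this array was 0.0067. TGFBR1 was high in PA replicate 1 at a probe set too dim to be tested, 4.20 against 3.84 to 3.90 (0.833 of the range). SMAD3 was high in DMSO replicate 3 at its called probe set, 9.92 against 9.68 to 9.71 (0.875 of the range), and the change without this array was 0.30.

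Among the control probe sets, the 15 background probe sets of lower GC content were higher in PA arrays by 0.066 on the log2 scale and the 18 hybridization controls by 0.089. Of the probe sets for 28S ribosomal RNA, an RNA of the cells, that in the middle of the molecule was higher in PA by 0.625 and that at the 5′ end by 0.343. Each of these rises had an exact two-sided permutation p of 0.0286, the smallest that 4 against 4 arrays allow, and their part in the changes of the members was not tested. By the same permutation test p was 0.714 for the 28S probe set at the 3′ end (-0.045) and 0.686 for the 24 poly-A controls (-0.027). It was 0.286 for the 3′ minus 5′ signal of ACTB (-0.095) and 0.743 for that of GAPDH (0.0075).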

How the results depend on the processing

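SMAD6 kept its direction and its call at the brightest probe set under every alternative at the adjusted p of 0.05 that was tested, except the GC-rich background as a covariate (adjusted p = 0.179 from limma). Of the 23 member probe sets the number raised and lowered was 0 and 0 with that covariate, 2 and 4 with an intensity trend (3769 and 4751 of all probe sets), and 2 and 4 with unmoderated q-values (4405 and 4726 of all). A filter of 5 kept 18 member probe sets, of which 1 was raised and 3 were lowered, or 22.2% called against 25.0% of all probe sets. With quantile normalization over these arrays 1 of the 23 was raised and 2 were lowered, or 13.0% against 17.2% of all. At 1.5-fold 0 were raised, and at an unadjusted p under 1e-05 with 1.5-fold 0 were raised and 0 lowered. Without each array in turn 0 to 1 were raised and 1 to 2 lowered. ID3 passed with the filter of 5 (adjusted p = 0.0347), quantile normalization (0.0413), the trend (0.00469) and q-values (0.0255). The dimmest ID1 probe set also passed, as lowered, with the filter of 5, the trend and q-values. With the trend and with q-values the second ID1 probe set passed as lowered and the second SMAD3 probe set as raised.

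Over all probe sets 369 were raised and 237 lowered with the covariate, 184 and 255 at 1.5-fold, 115 and 75 at the unadjusted threshold, and 1860 to 2974 and 2180 to 3581 without each array, with the lowest counts without PA replicate 2 (1860 raised) and DMSO replicate 2 (2180 lowered). Without DMSO replicate 1, 1995 were raised.

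Direction turned for TGFBR1 with quantile normalization (0.0070) and with the covariate (0.038), for SKIL with the covariate (0.15), for SMAD7 without PA replicate 2 (-0.0025, in a range of -0.0025 to 0.184 over the arrays left out) and for ID1 minus ID3 with the mean of probe sets (-0.033) and, chosen after seeing the data, with the equally bright ID3 probe set (-0.0475); none of these passed a test, and the cause was not tested. Same-numbered arrays did not deviate together over all probe sets tested (correlations of -0.153 to 0.053). Whether same-numbered samples were handled together is not stated in the sources used here. The replicate block gave 1585 raised and 2003 lowered, lost SMAD3 (adjusted p = 0.0665) and added TGFB1 (0.0387). The filter of 5 left no value for TGFB2 and SMAD7.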
